A study of Homo sapiens with 12 samples.

Results

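The comparison described here is between OGDH-depleted and control A375 cells that were both kept without glucose for 5 hours. A375 is an established human melanoma cell line. The members are the 6 libraries whose sample titles name OGDH KO or control together with the absence of glucose, 3 in each group, out of 12 libraries in the series. The other 6 libraries came from control and OGDH-depleted cells without that starvation, again 3 in each group, and are used where the effect of OGDH loss is set against its effect in the presence of glucose. The sample titles speak of a knockout and the series text of a knockdown. The labels do not give the reagent used against OGDH, its promoter, or whether the depleted cells were 1 clone. Nothing in them states that replicates came from separate cultures. The p-values below therefore rest on the spread between libraries alone, and that spread may be technical. RNA was measured as sequenced fragments per gene, and levels are given below in CPM, the standard unit for a gene's share of all counts in its library, after scaling between libraries by the trimmed mean of M-values (TMM). A gene is said to be higher or lower in OGDH KO cells, or to have risen or fallen with OGDH loss, only where its Benjamini-Hochberg adjusted p from edgeR's quasi-likelihood test was under 0.05.

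OGDH is the first enzyme (E1) of the 2-oxoglutarate dehydrogenase complex, which oxidises 2-oxoglutarate to succinyl-CoA in the tricarboxylic acid (TCA) cycle, with DLST as E2 and DLD as E3. 2-Oxoglutarate is also the co-substrate of a large class of dioxygenases, among them the prolyl hydroxylases that mark hypoxia-inducible factors for destruction and the enzymes that demethylate DNA and histones. Glucose feeds glycolysis and also supplies the sugars from which N-glycans are built in the endoplasmic reticulum (ER). Cells deprived of glucose are known to switch on the unfolded protein response (UPR). In that response the ER sensors IRE1 (the ERN1 gene), PERK (EIF2AK3) and ATF6 raise the production of ER chaperones such as BiP (HSPA5), and PERK phosphorylates eIF2-alpha, which favours translation of ATF4 and starts the integrated stress response.

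The targeted gene checked the labels first. OGDH (chr7:44606572-44709066, hg38) measured 129, 133 and 130.5 CPM in the 3 starved control libraries and 32.3, 33.9 and 32.3 CPM in the 3 starved OGDH KO libraries. All 3 KO libraries lay far below all 3 controls, at a log2 difference of -1.99, SE 0.10, edgeR adjusted p = 3.47e-07, and the KO mean was 25.1% of the control mean. With glucose the log2 difference was -1.96, and the test of the difference between these effects gave -0.038 (edgeR adjusted p = 0.900).

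The 6 libraries held between 21559889 and 25546615 assigned fragments. Starved control replicate 3 and starved OGDH KO replicate 3 stood apart from their groups: the mean absolute log2 distance to the other libraries of the group was 0.459 and 0.382, against 0.192 to 0.352 for the other 4. The share of counts on mitochondrial genes was 14.4%, 13.2% and 4.11% in the starved controls and 3.06%, 5.12% and 9.71% in the starved OGDH KO libraries. The dependence of levels on gene GC content, in log2 units per 10 percentage points of GC, was -0.216, -0.262 and 0.152 in starved controls. In the starved OGDH KO libraries it was 0.0967, -0.0448 and -0.298. Counts that lead the description are therefore also given without the 2 libraries that stood apart, an alternative added after the data were seen. In the other 4 libraries, mitochondrial share and GC dependence both separate controls from OGDH KO. That alternative therefore cannot tell these measures from OGDH loss. C1 to C3 and K1 to K3 stand below for replicates 1 to 3 of starved control and starved OGDH KO cells where a call was lost without one of them. The melanoma label was checked against lineage markers. SOX10, a transcription factor of neural crest and melanocytes, was abundant (372, 374 and 299 CPM in starved controls, 505, 578 and 568 in starved OGDH KO). In contrast, the pigment genes PMEL, MLANA and DCT averaged under 1 CPM in both groups and TYR had too few counts to be tested. SOX10 was higher in the KO libraries (log2 0.66, SE 0.12, edgeR adjusted p = 0.00162), a call lost after a GC correction (log2 0.50, edgeR adjusted p = 0.168). Of the 11 tested melanocyte and melanoma markers 2 were higher, SOX10 among them, and 1 was lower, with log2 differences from -2.04 to 1.27. These counts stand beside 13.7% higher and 15% lower over all tested genes. Of 27 markers listed for blood, epithelial, endothelial and fibroblast cells, 13 had enough counts to be tested. Of these, KRT18 and KRT14 were lower in KO libraries, CD14 was lower from a control mean of 0.785 CPM, and KDR and PDGFRB were higher, at KO means of 4.06 and 7.45 CPM. The defining markers PTPRC, EPCAM, CDH5 and FAP had too few counts to be tested. The summed level of the blood list lay between 2.29 and 3.74 CPM over all 6 libraries, that of the endothelial list between 2.48 and 5.02 CPM, and that of the fibroblast list between 9.26 and 15.1 CPM. The summed level of the epithelial list, nearly all of it KRT18, was 728 to 765 CPM in starved controls and 339 to 385 CPM in starved OGDH KO cells.

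Expression differed widely between starved OGDH KO and starved control cells. Heme oxygenase and most ER chaperones were far lower in OGDH KO cells than in controls. Many stress-induced transcription factors, heat shock genes and early-response genes were lower too, while most genes of mitosis were higher. Of 18526 genes with enough counts, 2531 (13.7% of those tested) were higher and 2779 (15%) were lower in the OGDH KO libraries. The counts of each list below are to be read beside these shares, 28.7% in either direction. With glucose the shares were 1.59% higher and 1.45% lower. The large changes were mostly decreases: 1337 genes were lower and 843 higher by at least 2-fold, 316 lower and 93 higher by at least 4-fold, and 85 lower and 10 higher by at least 8-fold. The 3 libraries of one group did not overlap the 3 of the other for 3540 genes in the higher direction (19.1%) and 3636 in the lower (19.6%), and 5143 of the 5310 called genes were among them. The median log2 difference over all tested genes was 0.0042 and the median standard error (SE) was 0.22. Without the 2 libraries that stood apart, 6349 genes were called, 3298 higher and 3051 lower. Against a change of at least 1.5-fold, 636 genes were higher and 1017 lower.

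**Figure D1:**
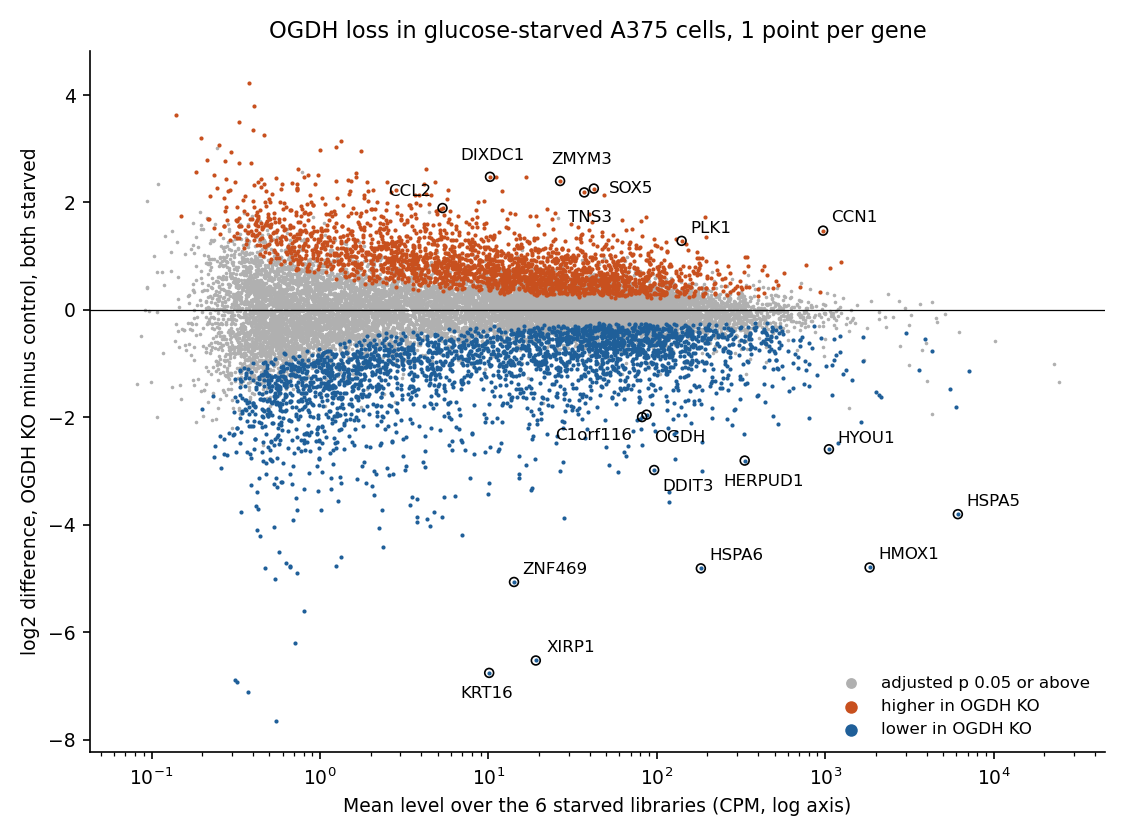
Each point is 1 of 18526 tested genes, placed by its mean level over the 6 starved libraries (CPM, log axis) and by the log2 difference between OGDH KO and control cells, both without glucose. Orange and blue points are the 2531 higher and 2779 lower genes. The ringed genes are named in the text, and they include HSPA5 (-3.80) and HMOX1 (-4.79).

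The ER folding machinery was lower almost throughout. Of 25 ER chaperones and folding enzymes, all tested, 21 were lower in OGDH KO cells and 0 were higher, with a median log2 difference of -1.55. The count of lower genes was the same without the 2 libraries that stood apart, when 1 member was higher. Together the 25 genes made up 2.46 to 2.52% of the normalised total in the starved controls and 0.524 to 0.535% in the starved OGDH KO libraries. The promoters of 7 of the 24 members with a window in RefSeq (GRCh38.p14, 250 bases before to 50 after each start) held the ER stress element, searched on both strands as CCAAT and CCACG with 9 bases of any kind between them. The element is the binding sequence known for ATF6 together with NF-Y. It was present in 0.0769% of all 35116 such windows and in 25 genes (0.0916%). The stretches around 6 of these matches in 5 chaperone genes follow, read along the gene's own strand and ending before the start site. They are shown because their list had the lowest median log2 difference of the 44 lists, and capitals mark the element, which runs in the reverse orientation (CGTGG first, ATTGG last) in all but the HSPA5 and the first HSP90B1 stretch.
HSPA5 (chr9:125241371-125241429, minus strand): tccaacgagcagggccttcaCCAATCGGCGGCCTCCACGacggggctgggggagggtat
HSP90B1 (chr12:103930196-103930254, plus strand): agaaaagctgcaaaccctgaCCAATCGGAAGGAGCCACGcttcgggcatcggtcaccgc
HSP90B1 (chr12:103930301-103930359, plus strand): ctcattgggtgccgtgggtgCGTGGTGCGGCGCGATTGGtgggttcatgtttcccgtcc
CALR (chr19:12938364-12938422, plus strand): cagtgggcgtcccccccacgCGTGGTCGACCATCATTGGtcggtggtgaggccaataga
CRELD2 (chr22:49918534-49918592, plus strand): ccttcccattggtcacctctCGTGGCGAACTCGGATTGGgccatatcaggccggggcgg
ERO1B (chr1:236282163-236282208, minus strand): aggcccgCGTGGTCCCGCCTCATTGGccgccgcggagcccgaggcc
Of the 18 tested genes with this element in a promoter window, chaperones included, 15 were lower (83.3%) and 1 was higher (5.56%), beside 14.8% lower and 16% higher among the 11816 tested genes with a window. A match of letters is a description and shows no binding.

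HSPA5 (chr9:125234853-125241382), which encodes BiP, the ER's main Hsp70 chaperone, measured 11307, 10839 and 12190.0 CPM in the starved controls and 852, 826 and 787 CPM in the starved OGDH KO libraries. Every control library lay far above every KO library, and the means differed 13.9-fold (log2 -3.80, SE 0.11, edgeR adjusted p = 8.41e-09). With glucose the mean was 798 ± 42.7 CPM (SD, n = 3, as for each mean with ± below) in control and 685 ± 6.75 CPM in OGDH KO cells. HYOU1, the ER nucleotide exchange factor also known as GRP170, fell from 1882, 1806 and 1728 to 290.3, 305 and 302 CPM (log2 -2.59, SE 0.086, edgeR adjusted p = 3.34e-08). The BiP co-chaperone DNAJB11 measured 162, 148 and 151 against 34.2, 37.5 and 33.8 CPM (log2 -2.13, SE 0.085, edgeR adjusted p = 8.12e-08). The secreted survival factor MANF measured 439, 425 and 393 against 99.3, 105 and 102 CPM (log2 -2.04, SE 0.085, edgeR adjusted p = 1.11e-07). In none of the 3 did the groups overlap. Of the genes whose promoter stretches are printed above, HSP90B1 (GRP94) differed by -2.09, CALR (calreticulin) by -1.53, CRELD2 by -2.72 and ERO1B by -2.20 on the log2 scale, all lower. The 4 members that did not pass the test were SIL1 (-0.33), ERO1A (-0.12), TXNDC5 (-0.31) and ERP29 (0.26). ERP29 was the 1 member higher without the 2 libraries that stood apart (0.61, edgeR adjusted p = 0.0288). With glucose 0 of the 25 genes passed edgeR's test in either direction, against a background of 1.59% higher and 1.45% lower (1 higher and 7 lower at an unadjusted p under 0.05, 4 lower by DESeq2). The test of the difference between the effects was passed by 20 of them in the lower direction (background 8.95%).

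**Figure D2:**
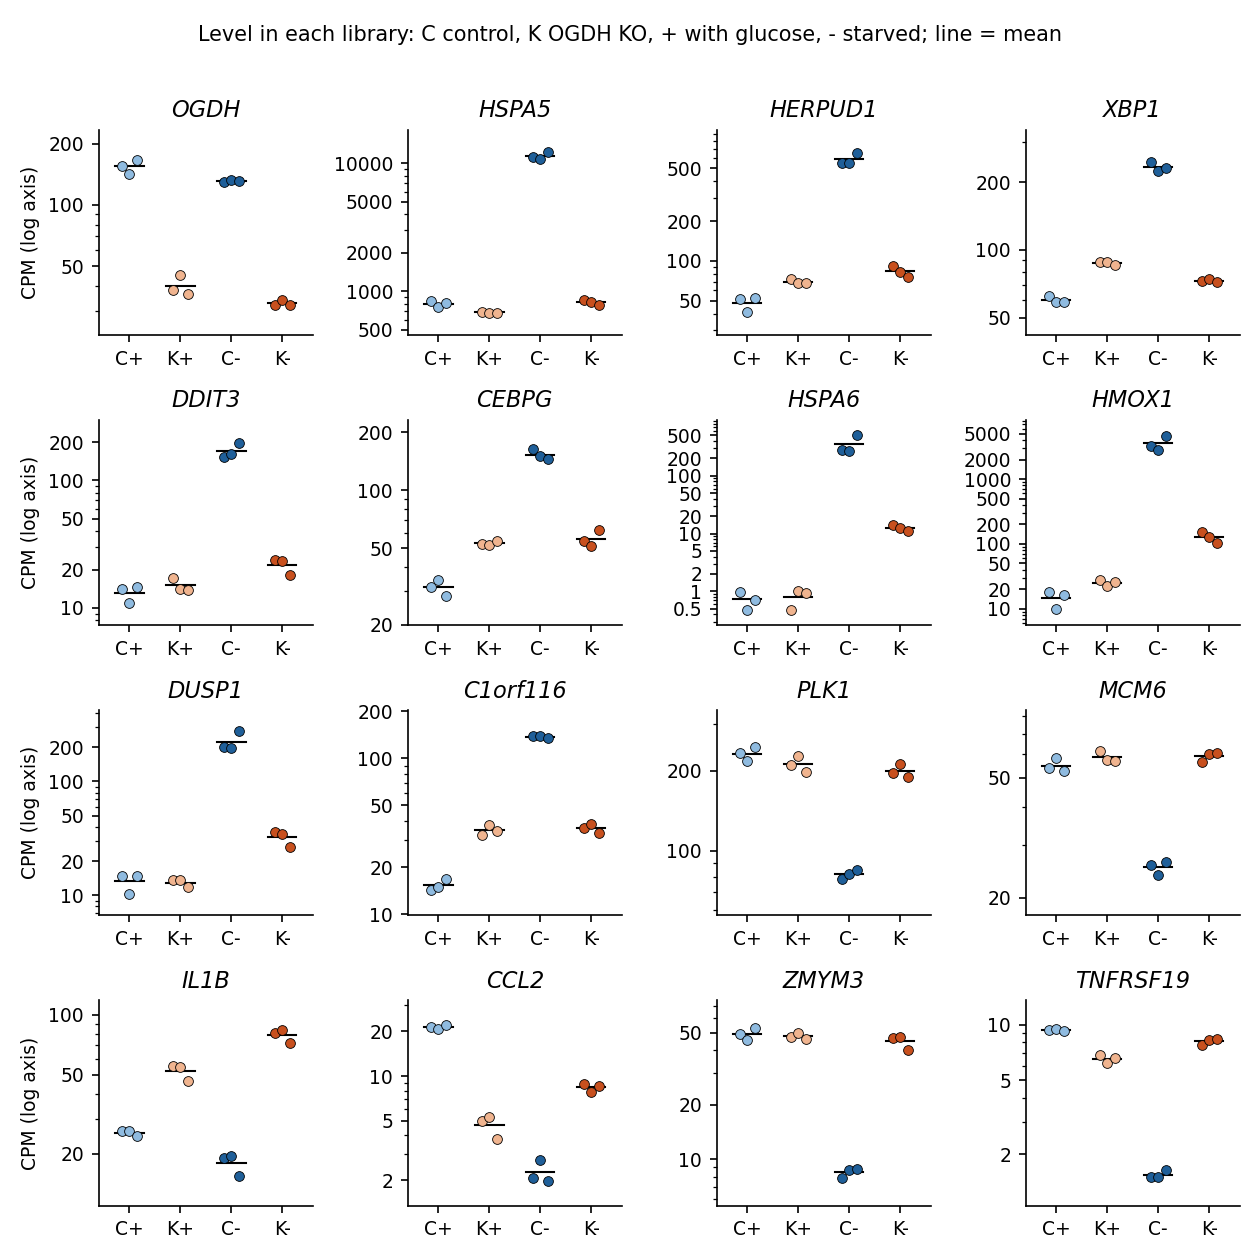
Level of 16 genes in each of the 12 libraries (CPM, log axis). C and K are control and OGDH KO cells, + and - stand for glucose present and absent, each point is 1 library and the line is the mean of 3. In the stress genes from HSPA5 to C1orf116 the 3 starved controls stand above every other library, and in PLK1, MCM6, ZMYM3 and TNFRSF19 they stand below.

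Other parts of the ER secretory pathway held lower calls too. In ER-associated degradation, which returns misfolded proteins to the cytosol, 10 of 17 tested genes were lower and 0 higher (median log2 -0.93), and 10 were lower and 1 higher without the 2 libraries that stood apart. HERPUD1, a UPR-induced member of the degradation complex, measured 546, 548 and 652 CPM in the controls and 91.4, 83.1 and 75.5 CPM in the KO libraries (log2 -2.80, SE 0.13, edgeR adjusted p = 1.78e-07). The scaffold SEL1L (log2 -1.96, SE 0.11, edgeR adjusted p = 4.63e-07) and the ubiquitin ligase SYVN1 that it holds (log2 -1.68, SE 0.10, edgeR adjusted p = 6.68e-07) fell too. SELENOS, a selenoprotein that recruits the extraction machinery, also fell (log2 -1.56, SE 0.084, edgeR adjusted p = 4.13e-07). Of 29 genes for translocation into the ER and COPII transport out of it, 12 were lower and 0 higher (15 and 1 without the 2 libraries). SEC24D, a COPII cargo adaptor, had the smallest p among them at 245, 229.5 and 178 against 54.4, 63.9 and 68.99 CPM (log2 -1.80, SE 0.15, edgeR adjusted p = 7.80e-06). It was followed by the signal peptidase subunit SEC11C (log2 -0.83), the COPII coat subunit SEC23B (-0.86) and the signal recognition particle receptor subunit SRPRB (-0.69).

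With all 6 libraries, genes that make N-glycans and their sugar donors were called lower more often than all genes, and higher less often. Of 30 tested, 13 were lower and 3 higher, beside 15% and 13.7% of all tested genes. Without the 2 libraries that stood apart 13 were lower and 7 higher. The hexosamine pathway led the decreases. Its first enzyme GFPT1 measured 261, 267 and 220.4 CPM in controls and 85.4, 91.4 and 101 CPM in KO libraries (log2 -1.43, SE 0.13, edgeR adjusted p = 1.34e-05). The later enzymes PGM3 (log2 -1.19, SE 0.12, edgeR adjusted p = 3.36e-05) and UAP1 fell as well. UAP1, which makes UDP-N-acetylglucosamine, had 728, 689 and 615 against 202, 203 and 214 CPM (log2 -1.71, SE 0.094, edgeR adjusted p = 4.38e-07). The mannosyltransferase ALG2 fell by 0.77 on the log2 scale. The 3 higher genes, named after their values were seen, were DPAGT1 (0.29, lost without C1, C2 or K2 at edgeR adjusted p from 0.0585 to 0.0710), ALG3 (0.45, lost without C1, C2, K1 or K2 at edgeR adjusted p from 0.116 to 0.150) and DOLK (0.31, lost without C1, C2 or K1 at edgeR adjusted p from 0.0569 to 0.0785). This count of higher genes ranged from 0 to 5 when single libraries were left out, with 0 when starved control replicate 2 was absent. It was also 0 when the starved groups were fitted alone.

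Of the 3 ER stress sensors, 2 fell. ERN1, which encodes the kinase and RNase IRE1, measured 57.9, 58.8 and 56.6 CPM in controls and 15.7, 13.5 and 13.3 CPM in KO libraries (log2 -2.03, SE 0.096, edgeR adjusted p = 1.95e-07). EIF2AK3, which encodes the eIF2-alpha kinase PERK, measured 47.3, 50.5 and 39.3 and 13.5, 13.6 and 15.6 CPM (log2 -1.68, SE 0.13, edgeR adjusted p = 4.41e-06). ATF6, the third sensor, named after its value was seen, overlapped between the groups at 145, 153 and 119 and 94.5, 108 and 122 CPM and did not pass (log2 -0.36, SE 0.14, edgeR adjusted p = 0.0816). It was lower without starved control replicate 3 (edgeR adjusted p = 0.0358) and without the 2 libraries that stood apart (edgeR adjusted p = 0.0195). So it was with DESeq2 (adjusted p = 0.0494) and after the GC correction (edgeR adjusted p = 0.000455). XBP1 (chr22:28794555-28800597), whose mRNA IRE1 splices, measured 244, 224 and 231 and 72.4, 74.3 and 71.8 CPM (log2 -1.68, SE 0.079, edgeR adjusted p = 1.92e-07). ERN1, EIF2AK3 and XBP1 separated the groups without overlap; the counts are per gene and do not tell the spliced XBP1 form from the unspliced one. The ER-bound transcription factor CREB3L2 also fell (log2 -1.14, SE 0.15, edgeR adjusted p = 0.000223), giving 4 lower of 14 tested sensors, factors and kinases (6 without the 2 libraries that stood apart, with 2 higher as before). The 2 that rose, named after their values were seen, were EIF2AK4, the amino acid sensing kinase GCN2 (0.53), and CREB3L1 (0.94, lost without C2, C3, K1, K3 or both C3 and K3 at edgeR adjusted p from 0.0553 to 0.156). The CREB3L1 call was also lost after the GC correction (edgeR adjusted p = 0.115) and with DESeq2 (adjusted p = 0.0583). Of 6 transcripts known as substrates of IRE1-dependent decay, 3 were higher and 0 lower. They were SCARA3 (0.60), PDGFRB (0.92, lost without C1, K1 or K2 at edgeR adjusted p from 0.0526 to 0.0575) and SPARC (868, 816 and 796 against 995, 1071 and 1045 CPM, log2 0.33, SE 0.087, edgeR adjusted p = 0.0148). The SCARA3 call was lost after the GC correction (edgeR adjusted p = 0.122). The SPARC call was lost without K2 at edgeR adjusted p = 0.0583. Without starved OGDH KO replicate 2, 1 of the 6 was called.

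Most integrated stress response genes were lower in starved OGDH KO cells, although several of its members were higher with OGDH loss when glucose was present. Of 18 tested regulators and targets, 14 were lower and 1 higher without glucose, with a median log2 difference of -1.22 (12 lower and 0 higher without the 2 libraries that stood apart). With glucose 10 of the 18 were higher and 0 lower, with a median of 0.74, against a fed background of 1.59% higher. The count of higher genes was 7 or 8 with each fed library left out. In all, 9 members were higher with glucose and lower without it. The difference between the 2 effects was called for 15, all in the lower direction. DDIT3 (chr12:57516588-57521737), the pro-apoptotic factor CHOP, measured 154, 161 and 199 CPM in starved controls and 23.7, 23.2 and 18.3 CPM in starved OGDH KO libraries (log2 -2.98, SE 0.16, edgeR adjusted p = 4.63e-07). Its mean with glucose was 13.2 ± 1.93 CPM in control and 15.1 ± 1.95 CPM in KO cells, and the fed effect did not pass the test (0.19, edgeR adjusted p = 0.619). CEBPG, a dimer partner of ATF4, measured 163, 151 and 145 against 54.3, 51.2 and 61.9 CPM (log2 -1.45, SE 0.10, edgeR adjusted p = 2.49e-06). With glucose CEBPG was higher in KO cells (31.2 ± 3.02 CPM in control, 53.1 ± 1.33 CPM in KO, log2 0.76, SE 0.10, edgeR adjusted p = 0.00320). The leucine sensor SESN2 (log2 -2.46, SE 0.24, edgeR adjusted p = 2.11e-05) and the transcription factor CEBPB (log2 -1.75, SE 0.17, edgeR adjusted p = 2.39e-05) fell as well.

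The mRNA of ATF4 itself, which is controlled mainly through translation, overlapped between the groups at 578, 600.4 and 734 CPM in controls and 579, 545 and 461 CPM in KO libraries (log2 -0.27, SE 0.14, edgeR adjusted p = 0.183). After the GC correction the same direction passed the test (-0.35, edgeR adjusted p = 0.000523). The member that rose, named after its value was seen, was ATF5 (0.41, lost without C1, C3, K3 or both C3 and K3 at edgeR adjusted p from 0.0503 to 0.0972). The ATF5 call was also lost after the GC correction (edgeR adjusted p = 0.318). Among members with the CEBP-ATF response element in their promoters, searched as TGATGCAA on both strands and present in 304 windows (0.866%), were CEBPG, CHAC1, FGF21 and JDP2, which are 4 of 17 list members with a window. CHAC1, which degrades glutathione, is shown with its match in capitals, here in the reverse orientation TTGCATCA.
CHAC1 (chr15:40953242-40953289, plus strand): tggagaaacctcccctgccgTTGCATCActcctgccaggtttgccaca
CHAC1 measured 67.6, 60.7 and 119 CPM in starved controls and 36.5, 25.1 and 18.7 CPM in starved KO libraries (log2 -1.62, SE 0.34, edgeR adjusted p = 0.00371). It was higher with OGDH loss when glucose was present (log2 2.31, SE 0.35, edgeR adjusted p = 0.00497). CHAC1 was named for this match after its values were seen. Of 91 tested genes with the element, members of this list included, 22 were lower (24.2%) and 13 higher (14.3%), beside 14.8% and 16% of the 11816 tested genes with a window.

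Lower calls were also frequent among amino acid transporters and, in part, tRNA synthetases. All 12 tested amino acid transporters had values below 0 and 8 were lower, with 0 higher and a median of -0.83 (7 lower without the 2 libraries that stood apart). SLC7A1, the cationic amino acid transporter, measured 563, 579 and 609 CPM in controls and 287, 293 and 256 CPM in KO libraries (log2 -1.07, SE 0.092, edgeR adjusted p = 8.65e-06). SLC1A4, which carries serine and alanine, fell from 59.2, 55.4 and 64.5 to 29.98, 27.4 and 25.4 CPM (log2 -1.11, SE 0.10, edgeR adjusted p = 1.46e-05). With glucose this gene was higher in KO cells (11.6 ± 0.867 CPM in control against 31.4 ± 0.622 CPM in KO, log2 1.44, SE 0.10, edgeR adjusted p = 6.16e-05). The glycine transporter SLC6A9 (log2 -1.11, SE 0.14, edgeR adjusted p = 0.000181) and the glutamine transporter SLC38A1 (log2 -1.10, SE 0.17, edgeR adjusted p = 0.000533) were lower too. With glucose 4 of the 12 were higher with OGDH loss and 0 lower, against a fed background of 1.59% higher. The count of higher genes was 2 without fed control replicate 1 or any 1 of the fed KO libraries. Of 20 cytosolic aminoacyl-tRNA synthetases, 9 were lower and 0 higher (9 and 3 without the 2 libraries, and 5 lower when the starved groups were fitted alone). The smallest p belonged to WARS1, at 668, 741 and 593 against 317, 366 and 362 CPM (log2 -0.94, SE 0.11, edgeR adjusted p = 7.01e-05), with GARS1 (-0.94), SARS1 (-0.55) and IARS1 (-0.57) next by p.

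Among 18 enzymes of amino acid synthesis and one-carbon metabolism, 6 were lower and 1 higher (4 and 2 without the 2 libraries). CTH, which makes cysteine from cystathionine, measured 133, 134 and 103 CPM in controls and 28.5, 31.7 and 29.1 CPM in KO libraries (log2 -2.05, SE 0.13, edgeR adjusted p = 1.40e-06). The aspartate aminotransferase GOT1 fell (log2 -1.13, SE 0.14, edgeR adjusted p = 0.000151). The cytosolic serine hydroxymethyltransferase SHMT1 rose from 20.03, 20.4 and 27.8 to 48.9, 46.98 and 32.7 CPM (log2 0.91, SE 0.19, edgeR adjusted p = 0.00402). The mitochondrial enzyme MTHFD2 was lower by a small amount, at 438, 409 and 458 against 348, 338 and 322 CPM (log2 -0.37, SE 0.080, edgeR adjusted p = 0.00449). This call was lost without the 2 libraries that stood apart (log2 -0.26, edgeR adjusted p = 0.0570). ASNS, the asparagine synthetase and a known ATF4 target, overlapped between the groups at 22.2, 21.4 and 15.7 and 12.6, 15.7 and 16.96 CPM (log2 -0.39, SE 0.17, edgeR adjusted p = 0.117). It passed as lower without C3 (-0.53, edgeR adjusted p = 0.0327) or without both those libraries (-0.58, edgeR adjusted p = 0.0238).

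**Figure D3:**
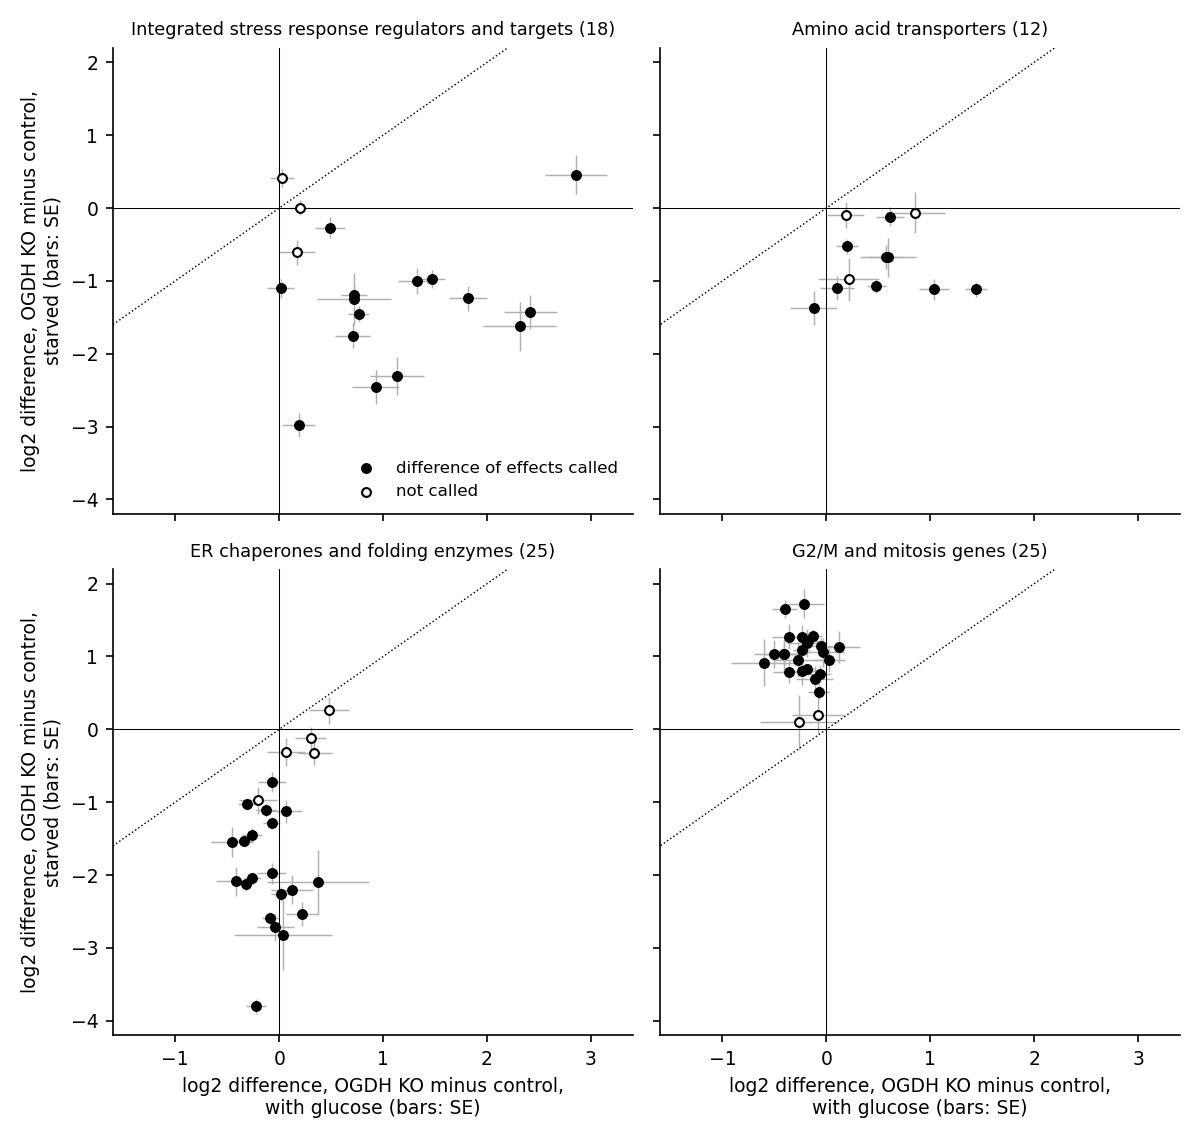
Each point is 1 gene, placed by the log2 difference between OGDH KO and control cells with glucose (horizontal) and without it (vertical), with bars of 1 SE and a dotted line where both effects are equal. Filled points are genes whose 2 effects differed by the edgeR test of the difference. Members of the integrated stress response and amino acid transporters lie mostly to the right of 0 and below it, ER chaperones lie below 0 near no effect with glucose, and the G2/M genes lie above 0.

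Cytosolic heat shock genes, which encode chaperones that are switched on when proteins misfold in the cytosol, mostly fell: 14 of 19 tested were lower and 0 higher, with a median of -0.74 (15 lower without the 2 libraries that stood apart). HSPA6, an Hsp70 that is expressed almost only under stress, measured 285, 269.7 and 503 CPM in controls and 14.04, 12.7 and 10.9 CPM in KO libraries (log2 -4.81, SE 0.30, edgeR adjusted p = 8.85e-07). With glucose its mean was 0.726 ± 0.258 CPM in control and 0.810 ± 0.288 CPM in KO cells. Its promoter held a heat shock element, searched on both strands as GAA, TTC and GAA in this order with 2 bases of any kind between each, and found in 172 windows (0.49%), and shown here in the reverse orientation.
HSPA6 (chr1:161524446-161524498, plus strand): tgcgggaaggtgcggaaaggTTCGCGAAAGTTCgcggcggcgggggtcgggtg
In all, 6 of 18 list members with a window held it. Of 57 tested genes with it, members of this list included, 18 were lower (31.6%) and 8 higher (14%), beside 14.8% and 16% of the 11816 tested genes with a window. The Hsp40 DNAJB1 measured 2796, 3019 and 3884 against 1127, 1055 and 965 CPM (log2 -1.62, SE 0.15, edgeR adjusted p = 1.62e-05). The co-chaperone BAG3 measured 1273, 1330.3 and 1226 against 281, 327 and 345 CPM (log2 -2.01, SE 0.11, edgeR adjusted p = 3.70e-07). The small heat shock protein HSPB8 fell as well (log2 -2.55, SE 0.15, edgeR adjusted p = 5.15e-07). HSPA8, the constitutive Hsp70, had one of the 8 largest differences in CPM among called genes, at 10733, 10511 and 8297 against 3727, 4392 and 5235 CPM (log2 -1.15, SE 0.15, edgeR adjusted p = 0.000217). HSPA1A fell by 2.47 on the log2 scale, with the limit that reads shared with its near copy HSPA1B were not counted. Of 14 mitochondrial chaperones and proteases 3 were lower and 1 higher (2 and 0 without the 2 libraries). They were thus called about as often as all tested genes, of which 28.7% were called in either direction. HSPA9, the mitochondrial Hsp70, fell (log2 -0.94, SE 0.16, edgeR adjusted p = 0.00119). HSPD1 (-0.53, lost without C1, C2, K1 or K2 at edgeR adjusted p from 0.0546 to 0.0883) and GRPEL1 (-0.29, lost without C2, C3, K2, K3 or both C3 and K3 at edgeR adjusted p from 0.0761 to 0.333) were also lower. OMA1 (0.56, lost without C1, C3, K3 or both C3 and K3 at edgeR adjusted p from 0.0570 to 0.112) was higher.

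**Figure D4:**
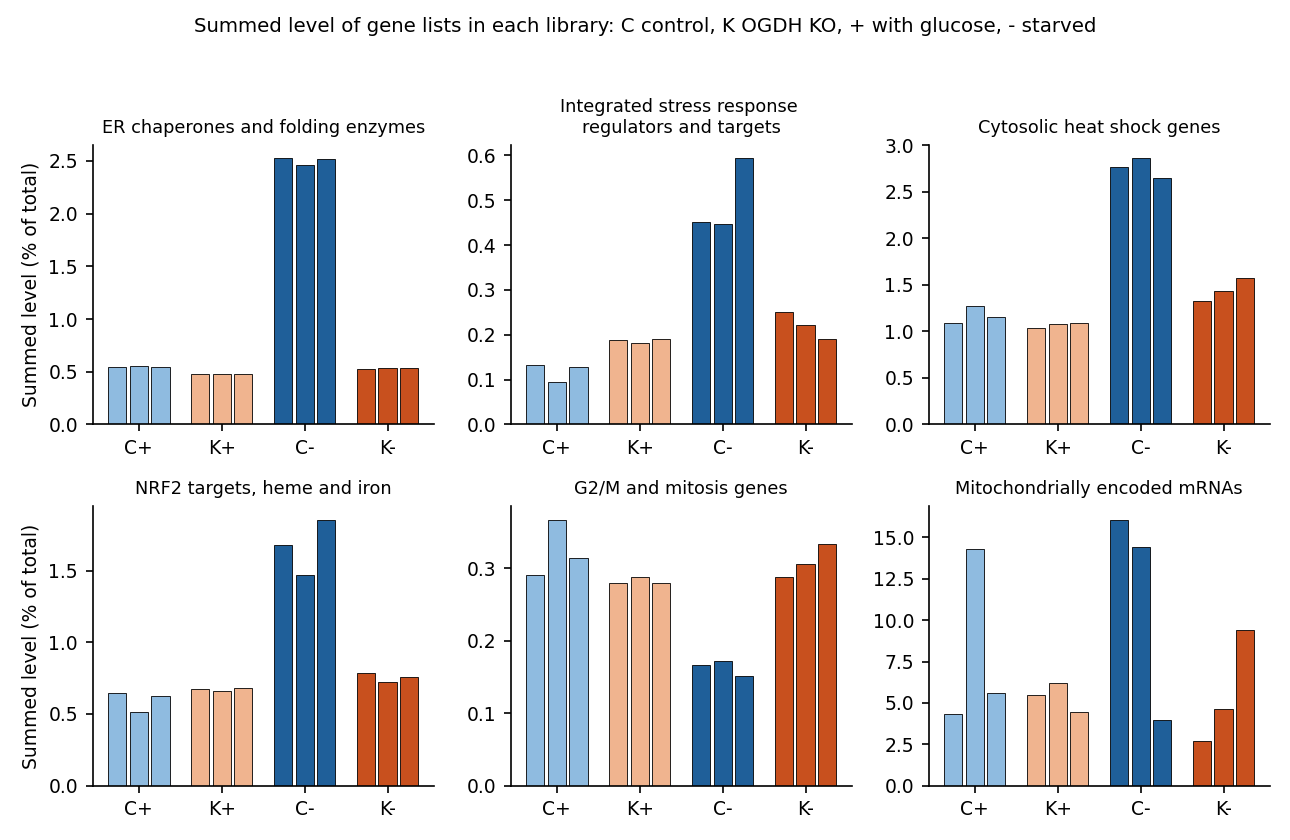
Summed normalised level of 6 gene lists in each of the 12 libraries, as a percent of the TMM-normalised total. C and K are control and OGDH KO cells, + and - stand for glucose present and absent, and each bar is 1 library. The starved controls are highest for the ER, stress response, heat shock and NRF2 lists and lowest for the G2/M list, whereas mitochondrial mRNAs vary within every starved group.

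HMOX1, which encodes the heme-degrading enzyme heme oxygenase 1, was far lower in starved OGDH KO cells. It measured 3241, 2776 and 4611 CPM in the starved controls and 150.3, 129 and 104 CPM in the starved KO libraries, a 27.7-fold difference of means (log2 -4.79, SE 0.28, edgeR adjusted p = 5.68e-07). With glucose it was at 14.8 ± 4.41 CPM in control cells. Of 23 NRF2 targets and genes of heme and iron handling 9 were lower and 0 higher (11 and 3 without the 2 libraries that stood apart). The ferritin heavy chain FTH1 measured 5518, 4295 and 5029 against 2076, 1935 and 2795 CPM (log2 -1.12, SE 0.16, edgeR adjusted p = 0.000324), though this gene has many processed copies whose reads the counting could not place. Thioredoxin reductase TXNRD1 (log2 -1.20, SE 0.089, edgeR adjusted p = 3.13e-06) and the autophagy receptor SQSTM1 (log2 -1.31, SE 0.12, edgeR adjusted p = 1.14e-05) fell with no overlap. TXNRD1 was higher with OGDH loss when glucose was present (log2 0.60, edgeR adjusted p = 0.00465). Metallothionein MT2A rose from 283, 297 and 369 to 608, 579.8 and 399 CPM (log2 0.74, SE 0.18, edgeR adjusted p = 0.00899). The zinc exporter SLC30A1 was the other called gene of 4 tested in the zinc list (0.36, lost without C2, K1 or both C3 and K3 at edgeR adjusted p from 0.0575 to 0.0614), where 1 was higher and 1 lower without the 2 libraries.

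Early-response genes, which are transcribed within minutes of growth factor or stress signals, held many lower calls: 14 of 26 fell, 1 rose, and the median was -0.75 (17 and 1 without the 2 libraries that stood apart). DUSP1, a phosphatase that switches off MAP kinases, measured 199, 197 and 276 CPM in controls and 36.3, 34.9 and 26.4 CPM in KO libraries (log2 -2.78, SE 0.19, edgeR adjusted p = 1.79e-06). The zinc-finger factors KLF6 (log2 -1.87, SE 0.12, edgeR adjusted p = 9.97e-07) and KLF4 (log2 -1.37, SE 0.10, edgeR adjusted p = 3.37e-06) and the antiproliferative BTG2 (log2 -1.88, SE 0.090, edgeR adjusted p = 2.03e-07) fell too. FOS measured 370.3, 389 and 447 against 251, 254 and 229 CPM (log2 -0.72, SE 0.11, edgeR adjusted p = 0.000775), a smaller difference in which both starved groups lay far above the fed control mean of 13.6 ± 1.87 CPM. The 1 higher member, named after its value was seen, was SRF (0.42, lost after the GC correction at edgeR adjusted p = 0.0923). Of 15 MAPK feedback and output genes 4 were lower and 2 higher (5 and 4 without the 2 libraries), beside 15% lower and 13.7% higher over all tested genes. SPRY4 (log2 -1.45, SE 0.12, edgeR adjusted p = 5.84e-06) and DUSP5 (log2 -1.29, SE 0.11, edgeR adjusted p = 9.15e-06) fell. In the same list DUSP4 (log2 0.55, SE 0.11, edgeR adjusted p = 0.00380) and ETV1 (log2 1.15, SE 0.28, edgeR adjusted p = 0.0104) rose. The other lower members, named after their values were seen, were EPHA2 (-0.83, lost without K3 or both C3 and K3 at edgeR adjusted p from 0.0564 to 0.109) and ETV5 (-0.33, lost without C1, C2, K1, K2 or K3 at edgeR adjusted p from 0.0642 to 0.160).

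The steepest decreases on the log2 scale among genes at 5 CPM or more were in KRT16, XIRP1 and ZNF469. KRT16, a stress keratin of epithelia, measured 17.002, 15.3 and 27.9 CPM in the starved controls and 0.310, 0.0833 and 0.137 CPM in the starved KO libraries, which rests on 13 fragments in all 3 KO libraries (log2 -6.75, SE 0.46, edgeR adjusted p = 1.70e-06). XIRP1, an actin-binding repeat protein of muscle, measured 37.03, 34.3 and 42.2 against 0.310, 0.375 and 0.547 CPM (log2 -6.52, SE 0.33, edgeR adjusted p = 3.05e-07). The zinc-finger gene ZNF469 measured 26.04, 23.1 and 33.6 against 0.892, 0.875 and 0.684 CPM (log2 -5.06, SE 0.23, edgeR adjusted p = 1.78e-07). No KO library of the 3 genes reached 1 CPM. The secreted protein gene CRISPLD2 (-3.94), PRR9 (-3.85), the keratin KRT6A (-3.85) and the ribosomal protein pseudogene RPLP0P2 (-3.89) were also among the 12 largest decreases at 5 CPM or more. Near copies of KRT16, KRT6A and RPLP0P2 make their counts uncertain. ACTG1, a cytoplasmic actin with many processed copies, was lower as well (log2 -0.76, SE 0.18, edgeR adjusted p = 0.00782), a call lost without the 2 libraries that stood apart (-0.46, edgeR adjusted p = 0.0824).

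The largest increases were in single genes of varied roles, several of them transcription factors. ZMYM3, a zinc-finger protein of chromatin complexes, measured 7.91, 8.71 and 8.84 CPM in starved controls and 46.6, 47.5 and 40.4 CPM in starved KO libraries (log2 2.40, SE 0.11, edgeR adjusted p = 1.78e-07), beside 49.1 ± 3.77 CPM in fed controls. The homeobox factor MEOX2 measured 5.72, 5.05 and 4.42 against 23.9, 26.7 and 34.1 CPM (log2 2.48, SE 0.17, edgeR adjusted p = 2.05e-06). The SOX factor SOX5 measured 17.2, 15.4 and 11.3 against 58.8, 63.1 and 87.8 CPM (log2 2.26, SE 0.23, edgeR adjusted p = 3.22e-05). None of these 3 overlapped between the groups. The Wnt pathway gene DIXDC1 (2.48), the glycosyltransferase gene B4GAT1 (2.48), the transcription factor NFIA (2.22), the focal adhesion protein TNS3 (2.19), the TNF receptor family member TNFRSF19 (2.38) and TLR3, a receptor for double-stranded RNA (2.16), were also among the 12 largest increases on the log2 scale. The remaining 3 were the long non-coding RNAs SORBS2-AS1 (2.62) and NKILA (2.35), whose counts are uncertain because the counting did not use strand and both overlap other genes, and the protocadherin PCDHB8 (2.23), which has near copies.

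Most genes of mitosis were higher in starved OGDH KO cells than in starved controls. Of 25 tested G2/M genes, 22 rose and 0 fell, with a median of 1.03 (21 and 0 without the 2 libraries that stood apart). Their summed level was 0.151 to 0.173% of the normalised total in starved controls and 0.289 to 0.333% in starved KO libraries. In these bulk samples, fewer cells in a phase and less RNA per cell cannot be told apart. PLK1, the Polo-like kinase of mitotic entry, measured 78.6, 81.6 and 84.8 CPM in controls and 197, 212 and 189 CPM in KO libraries (log2 1.29, SE 0.091, edgeR adjusted p = 2.20e-06). The mitotic cyclin CCNB1 measured 58.6, 54.8 and 62.4 against 144, 131 and 130.3 CPM (log2 1.21, SE 0.091, edgeR adjusted p = 3.64e-06). The kinesin KIF20A measured 34.9, 46.1 and 34.97 against 114, 128 and 123 CPM (log2 1.65, SE 0.13, edgeR adjusted p = 3.65e-06). Every KO library lay above every control in all 3, as it did for the spindle kinase AURKA (log2 1.08, SE 0.084, edgeR adjusted p = 4.26e-06). The members that did not pass were CDC20 (0.20), CENPE (0.099) and HMMR (0.92). CDC20 passed as higher without the 2 libraries that stood apart (0.70, edgeR adjusted p = 0.0389), HMMR passed without K1 (1.11, edgeR adjusted p = 0.0334), and CENPE turned to lower without the 3 libraries farthest from their groups, 1 of them fed (-0.58, edgeR adjusted p = 0.000532). With glucose 0 of the 25 passed edgeR's test in either direction (6 lower at an unadjusted p under 0.05, 2 lower by DESeq2), and the difference between the effects was called for 23, all in the higher direction (background 8.3%).

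Many G2/M promoters carry a cell-cycle homology region close to the start, through which the DREAM complex is known to repress them outside mitosis. Its letters TTTGAA, searched on both strands, occurred in 14 of 20 list members with a window (70%), against 15.2% of all windows and 18.2% of genes. For 4 members, all of them called higher, the match nearest the start is shown in capitals. CDC20 and HMMR, which did not pass the test, also held matches, which are not printed.
PLK1 (chr16:23678840-23678885, plus strand): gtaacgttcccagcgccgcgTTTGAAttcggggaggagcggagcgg
CCNB2 (chr15:59105097-59105142, plus strand): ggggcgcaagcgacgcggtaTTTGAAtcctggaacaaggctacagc
BUB1B (chr15:40161026-40161068, plus strand): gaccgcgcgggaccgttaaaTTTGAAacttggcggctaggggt
CENPA (chr2:26786018-26786055, plus strand): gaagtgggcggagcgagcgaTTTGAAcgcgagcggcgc
CCNB2 differed by 0.82, BUB1B by 1.27 and CENPA by 0.95 on the log2 scale, all higher. Among the 1667 tested genes with these letters, G2/M genes included, 344 were higher (20.6%) and 223 lower (13.4%), beside 16% higher and 14.8% lower among the 11816 tested genes with a window. Genes of DNA replication and the G1/S transition were more mixed: 9 of 29 rose and 3 fell (16 and 3 without the 2 libraries that stood apart). The replicative helicase subunit MCM6 measured 25.7, 23.8 and 26.3 against 56.2, 59.9 and 60.5 CPM (log2 1.22, SE 0.088, edgeR adjusted p = 2.49e-06). The sliding clamp PCNA measured 102, 96.6 and 101 against 161, 159 and 163 CPM (log2 0.69, SE 0.076, edgeR adjusted p = 5.84e-05). In the opposite direction, cyclin E1 (CCNE1, log2 -1.17, SE 0.091, edgeR adjusted p = 4.41e-06) and the origin-licensing factor CDC6 (log2 -0.98, SE 0.081, edgeR adjusted p = 6.36e-06) fell. So did CCNE2, named after its value was seen (-0.70, lost without C2, K1 or K2 at edgeR adjusted p from 0.0524 to 0.0557). With glucose 10 of the 29 were lower and 0 higher, against a fed background of 1.45% lower. The lower count was between 1 (without fed KO replicate 1) and 7 (without fed control replicate 2) when each fed library was left out, the other 4 giving 2 to 5.

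Few enzymes of the TCA cycle passed the test with all 6 libraries. The OGDH complex and related dehydrogenases were called about as often as all genes. Of 12 tested, 1 was lower and 3 were higher, beside 28.7% of all tested genes called in either direction. OGDH fell, and DHTKD1, the E1 subunit for 2-oxoadipate, rose from 14.9, 16.2 and 20.9 to 30.5, 29.9 and 23.8 CPM (log2 0.69, SE 0.15, edgeR adjusted p = 0.00490). The E2 gene DLST overlapped between groups at 122, 133 and 174 and 153, 139 and 109 CPM (log2 -0.099, SE 0.17, edgeR adjusted p = 0.708). The E3 gene DLD overlapped too, at 96.01, 98.02 and 82.3 and 90.01, 96.9 and 114 CPM (log2 0.12, SE 0.13, edgeR adjusted p = 0.514). The E2 genes of the pyruvate and branched-chain complexes, DLAT (0.29, lost without C1, C2, K1, K2 or K3 at edgeR adjusted p from 0.0509 to 0.139) and DBT (0.55, lost without C2, C3, K2 or both C3 and K3 at edgeR adjusted p from 0.0520 to 0.0645), passed as higher. Only 1 of these 12 genes was higher when starved OGDH KO replicate 2 was left out. The paralogue OGDHL, at 0.449, 0.322 and 0.715 CPM in controls and 0.465, 0.375 and 0.456 CPM in KO libraries, did not differ by the test (log2 -0.23, SE 0.35, edgeR adjusted p = 0.675). Of 21 TCA cycle and adjoining enzymes 1 rose and 1 fell, beside a background of 13.7% and 15% (4 rose and 2 fell without the 2 libraries that stood apart). GLUD1, which makes 2-oxoglutarate from glutamate, fell from 153, 139 and 127 to 91.9, 95.6 and 107 CPM (log2 -0.51, SE 0.10, edgeR adjusted p = 0.00303). The complex II subunit SDHD rose (0.49, lost without C2 or both C3 and K3 at edgeR adjusted p from 0.0546 to 0.0602).

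Of 30 tested 2-oxoglutarate-dependent dioxygenases 8 were lower and 2 higher (7 and 5 without the 2 libraries that stood apart, and 5 lower without starved control replicate 2). Over all tested genes 15% were lower and 13.7% higher, 28.7% in either direction, so the list as a whole was called about as often as all genes. The 5-methylcytosine oxidase TET3 measured 138, 143 and 140.0 CPM in controls and 63.5, 58.8 and 59.6 CPM in KO libraries (log2 -1.21, SE 0.081, edgeR adjusted p = 1.54e-06). The H3K27 demethylase KDM6B measured 395, 358 and 249 against 81.2, 86.4 and 115 CPM (log2 -1.82, SE 0.20, edgeR adjusted p = 4.88e-05), and the demethylase KDM7A and the prolyl hydroxylase EGLN2 fell by 1.005 and 1.23 on the log2 scale. The 2 that rose, named after their values were seen, were FTO (0.51), an RNA demethylase, and KDM3B (0.40). Hypoxia-related genes fell or did not pass: 6 of 17 were lower and 0 higher (5 and 0 without the 2 libraries). EPAS1, which encodes HIF-2-alpha, measured 17.5, 17.5 and 15.99 against 3.92, 4.62 and 3.51 CPM (log2 -2.08, SE 0.14, edgeR adjusted p = 1.63e-06). The angiogenic factor VEGFA measured 236, 238 and 303 against 109.8, 100.01 and 81.9 CPM (log2 -1.41, SE 0.15, edgeR adjusted p = 4.24e-05). NDRG1 (log2 -1.38, SE 0.14, edgeR adjusted p = 3.42e-05) and the mitophagy receptor BNIP3L (log2 -0.83, SE 0.13, edgeR adjusted p = 0.000761) were lower too.

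Most genes of the MondoA and arrestin-domain list were lower, while genes that take up and use glucose were called about as often as all genes. The list of MondoA, which senses glucose-6-phosphate, and arrestin-domain genes also holds HBP1. Of its 7 genes 6 were lower (also 6 without the 2 libraries that stood apart). TXNIP, an inhibitor of glucose uptake, measured 7.01, 8.11 and 6.65 CPM in controls and 3.57, 2.92 and 2.64 CPM in KO libraries (log2 -1.25, SE 0.14, edgeR adjusted p = 5.04e-05), beside 10.9 ± 0.232 CPM in fed controls. ARRDC3 (log2 -1.02, SE 0.15, edgeR adjusted p = 0.000461), ARRDC4 (log2 -0.70, SE 0.14, edgeR adjusted p = 0.00279) and HBP1 (log2 -0.82, SE 0.10, edgeR adjusted p = 0.000152) were lower too. Of 24 genes of glucose uptake and glycolysis 5 were lower and 2 higher (3 and 6 without the 2 libraries). These 7 calls of 24 stand beside 28.7% of all tested genes called in either direction. The glucose transporter SLC2A3 measured 172, 197 and 200.4 against 74.2, 69.4 and 66.4 CPM (log2 -1.44, SE 0.091, edgeR adjusted p = 1.07e-06). Hexokinase HK2 measured 170.4, 187 and 239 against 111, 103 and 96.4 CPM (log2 -0.94, SE 0.14, edgeR adjusted p = 0.000422). The lactate transporter SLC16A1 fell (log2 -0.65, SE 0.076, edgeR adjusted p = 8.54e-05), whereas phosphoglycerate mutase PGAM1 rose (log2 0.50, SE 0.081, edgeR adjusted p = 0.000800). SLC2A1, the other main glucose transporter, overlapped at 318, 312 and 618 and 447, 345 and 241 CPM (log2 -0.27, SE 0.32, edgeR adjusted p = 0.577). Its sign turned without the 3 libraries that stand farthest from their groups, 1 of them fed (0.31, edgeR adjusted p = 0.0348).

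Lipid genes changed in part. Of 23 genes of cholesterol synthesis and uptake 8 were lower and 0 higher (8 and 2 without the 2 libraries). HMGCS1, an early enzyme of the pathway, measured 139, 148 and 135 CPM in controls and 46.2, 45.6 and 49.6 CPM in KO libraries (log2 -1.58, SE 0.093, edgeR adjusted p = 6.55e-07). The sterol sensor INSIG1 measured 140.0, 141 and 132 against 50.9, 54.9 and 52.2 CPM (log2 -1.39, SE 0.079, edgeR adjusted p = 5.15e-07). The cholesterol carrier STARD4 fell too (log2 -1.94, SE 0.15, edgeR adjusted p = 4.01e-06). These 3 genes were also lower with OGDH loss when glucose was present, by -0.46, -0.74 and -0.83 on the log2 scale. There 5 of the 23 were lower, against a fed background of 1.45%. With 1 fed library left out that count was 2 to 4, with 2 in the absence of fed KO replicate 1 or 2 and 3 in the absence of each fed control. The fed call of HMGCS1 was lost without any fed library except KO replicate 3 (edgeR adjusted p from 0.0540 to 0.123), and that of STARD4 without fed KO replicate 1 or 2 (edgeR adjusted p from 0.0785 to 0.0801). HSD17B7 was lower without glucose (log2 -0.67). Among 11 genes of fatty acid synthesis the elongase ELOVL6 rose (log2 1.08, SE 0.19, edgeR adjusted p = 0.00123) and 3 genes fell. These were ACSL3 (log2 -1.10, SE 0.24, edgeR adjusted p = 0.00502), ELOVL5 (-0.46) and FADS2 (-0.30, lost without C1, C3, K1, K2, K3 or both C3 and K3 at edgeR adjusted p from 0.0658 to 0.144). Without the 2 libraries that stood apart 2 of the 11 were lower and 4 higher.

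Inflammatory genes moved in both directions. IL1B, the cytokine interleukin-1 beta, measured 19.02, 19.5 and 15.5 CPM in starved controls and 80.5, 83.4 and 72.3 CPM in starved KO libraries (log2 2.13, SE 0.12, edgeR adjusted p = 4.80e-07). It was also higher with OGDH loss in the presence of glucose (log2 1.02, SE 0.11, edgeR adjusted p = 0.00101). CCL2, a monocyte-attracting chemokine, rose from 2.08, 2.74 and 1.98 to 8.80, 7.83 and 8.62 CPM without glucose (log2 1.90, SE 0.16, edgeR adjusted p = 7.90e-06). Yet it was lower in KO cells with glucose, at 4.69 ± 0.782 CPM against 21.3 ± 0.652 CPM in control (log2 -2.19, SE 0.15, edgeR adjusted p = 4.76e-05). The neutrophil chemokine genes CXCL1 (131, 115.8 and 113 against 57.9, 61.8 and 53.6 CPM, log2 -1.06, SE 0.11, edgeR adjusted p = 4.15e-05) and CXCL3 (log2 -1.56, SE 0.13, edgeR adjusted p = 7.99e-06) were lower in both conditions. In all, 5 of 13 chemokines and cytokines were lower and 2 higher, the other lower genes, named after their values were seen, being CXCL2 (-1.23), IL11 (-1.46) and CSF2 (-0.85, lost without both C3 and K3 at edgeR adjusted p = 0.0610). Of 13 NF-kB subunits and feedback genes the deubiquitinase TNFAIP3 fell (log2 -0.998, SE 0.096, edgeR adjusted p = 2.07e-05) and the adhesion molecule ICAM1 rose (log2 0.67, SE 0.10, edgeR adjusted p = 0.000560). The other lower calls, NFKBIE (-1.10, lost without C3, K2, K3 or both C3 and K3 at edgeR adjusted p from 0.0706 to 0.192), NFKBIZ (-0.59, lost without C1, C2, K1 or K2 at edgeR adjusted p from 0.0703 to 0.0875) and BIRC3 (-0.59, lost without C1, C2, K1 or K2 at edgeR adjusted p from 0.122 to 0.144, named after its value was seen), bring the count to 4. Leaving out either of starved control replicates 1 and 2 or starved OGDH KO replicate 1 gave 2, and starved OGDH KO replicate 2 gave 1.

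Of 20 interferon-response and antigen-presentation genes 6 were higher and 1 lower (8 and 1 without the 2 libraries). The antiviral genes MX1 (4.83, 4.78 and 4.17 against 10.7, 10.5 and 9.71 CPM, log2 1.17, SE 0.12, edgeR adjusted p = 4.06e-05), IFI44 (log2 1.16, SE 0.12, edgeR adjusted p = 2.91e-05), OAS3 (log2 0.79, SE 0.098, edgeR adjusted p = 0.000122) and OAS1 (log2 1.44, SE 0.19, edgeR adjusted p = 0.000174) rose, with IFIT1 (1.33) and IFIT3 (0.72). The lower gene was the transcription factor IRF1, at 37.99, 33.9 and 51.3 CPM in controls and 18.6, 14.5 and 11.6 CPM in KO libraries (log2 -1.46, SE 0.21, edgeR adjusted p = 0.000414). IFIT1, IFIT3 and IRF1 were named after their values were seen.

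Genes of cell death, damage response and autophagy held more lower than higher calls with all 6 libraries. Those called higher were XPC (log2 0.43, lost without C1 or K2 at edgeR adjusted p from 0.0552 to 0.0600) and 2 lysosomal or autophagy genes named after their values were seen, ATP6V1A (0.32, lost without C1 or K2 at edgeR adjusted p from 0.0514 to 0.0652) and UVRAG (0.31, lost without C1, C2, K1 or K2 at edgeR adjusted p from 0.0785 to 0.134). GADD45A, a stress sensor of the cell cycle, measured 459, 462 and 501 CPM in controls and 157, 144 and 152 CPM in KO libraries (log2 -1.65, SE 0.084, edgeR adjusted p = 3.33e-07). GADD45B fell too (log2 -1.39, SE 0.22, edgeR adjusted p = 0.000810). In all, 4 of 16 p53 targets and GADD45 genes were lower (6 without the 2 libraries that stood apart), GADD45G (-2.45) and CCNG1 (-0.63, lost without C1, C2, K1 or K2 at edgeR adjusted p from 0.0954 to 0.112, named after its value was seen) among them. With the 1 higher gene of this list, these calls stand beside 28.7% of all tested genes called in either direction. Of 14 BCL2 family genes 5 fell and 0 rose (the same counts without the 2 libraries), on both sides of the family. They included the pro-death PMAIP1 (317, 354 and 279.8 against 120.4, 114 and 145 CPM, log2 -1.32, SE 0.14, edgeR adjusted p = 3.96e-05) and BCL2L11 (log2 -1.18, SE 0.11, edgeR adjusted p = 1.31e-05). The pro-survival genes that fell were BCL2L1 (log2 -0.55, SE 0.081, edgeR adjusted p = 0.000422) and BCL2 (log2 -0.62, SE 0.11, edgeR adjusted p = 0.00118). The fifth was BIK (-1.01), named after its value was seen. MAP1LC3B, which encodes the autophagosome protein LC3B, measured 374, 355 and 292 against 79.3, 82.9 and 90.1 CPM (log2 -2.02, SE 0.12, edgeR adjusted p = 6.68e-07). WIPI1 fell from 69.7, 68.3 and 69.5 to 26.02, 27.5 and 22.8 CPM (log2 -1.44, SE 0.10, edgeR adjusted p = 1.95e-06). With CTSL (-0.73) and GLA (-0.56) they were among 8 of 28 lysosome and autophagy genes that were lower, a count that was 5 without starved control replicate 1 or 2. Without the 2 libraries that stood apart, 7 of these 28 were lower and 7 higher.

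The remaining lists held smaller groups. Of 12 snoRNA host genes 7 were lower and 0 higher (5 and 0 without the 2 libraries). SNHG1 measured 157, 155 and 161 against 93.3, 89.7 and 84.1 CPM (log2 -0.82, SE 0.082, edgeR adjusted p = 2.56e-05), with GAS5 (log2 -0.62, SE 0.092, edgeR adjusted p = 0.000446), ZFAS1 (-0.55) and SNHG5 (-1.30) below it in order of p. Leaving out starved OGDH KO replicate 2 or 3 gave 4. Of 15 circadian clock genes 6 were lower, led by BHLHE40 (log2 -1.74, SE 0.091, edgeR adjusted p = 3.70e-07), PER1 (log2 -0.93, SE 0.091, edgeR adjusted p = 2.43e-05), CRY1 (log2 -0.78, SE 0.11, edgeR adjusted p = 0.000303) and BMAL1 (listed as ARNTL, log2 -0.83, SE 0.12, edgeR adjusted p = 0.000387). The 1 higher gene was TEF (0.88, lost without C1, C2 or K1 at edgeR adjusted p from 0.0618 to 0.0785, named after its value was seen), and 2 were higher without the 2 libraries. Of 11 YAP and TEAD targets 4 rose and 3 fell. The matricellular CCN1 was at 500.1, 520.2 and 522 against 1418, 1585 and 1285 CPM (log2 1.48, SE 0.12, edgeR adjusted p = 5.67e-06) and AMOTL1 (0.59) was also higher. The coagulation initiator F3 (log2 -1.63, SE 0.098, edgeR adjusted p = 7.03e-07) and CRIM1 (-0.46) were lower. The others, named after their values were seen, were LATS2 (0.39, lost without C1, C2, K1 or K2 at edgeR adjusted p from 0.0508 to 0.0730) and TEAD1 (0.42, lost without C2, C3, K2, K3 or both C3 and K3 at edgeR adjusted p from 0.0596 to 0.113), higher, and ANKRD1 (-0.51, lost without C1, C2, K1 or K2 at edgeR adjusted p from 0.0662 to 0.0721), lower. The count of higher genes was 2 without starved control or starved OGDH KO replicate 2. With glucose 9 of these 11 were higher, and 6 or 7 with each fed library left out, against a fed background of 1.59% higher. Of 10 collagen chains 3 were higher, COL4A1 (log2 0.80, SE 0.10, edgeR adjusted p = 0.000135), COL5A2 (log2 0.56, SE 0.093, edgeR adjusted p = 0.000997) and COL6A3 (0.30, lost without C1, C2, K1 or K2 at edgeR adjusted p from 0.113 to 0.176). Without the 2 libraries that stood apart 6 chains were higher. Of 22 ribosome biogenesis genes 3 were lower, PNO1 (-0.44), NOP58 (-0.53, lost without C1, C2, K1 or K2 at edgeR adjusted p from 0.107 to 0.125) and NOP2 (-0.75, lost without C2, C3, K2, K3 or both C3 and K3 at edgeR adjusted p from 0.0811 to 0.296), below the background, and 1 was lower without starved control or starved OGDH KO replicate 2.

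**Figure D5:**
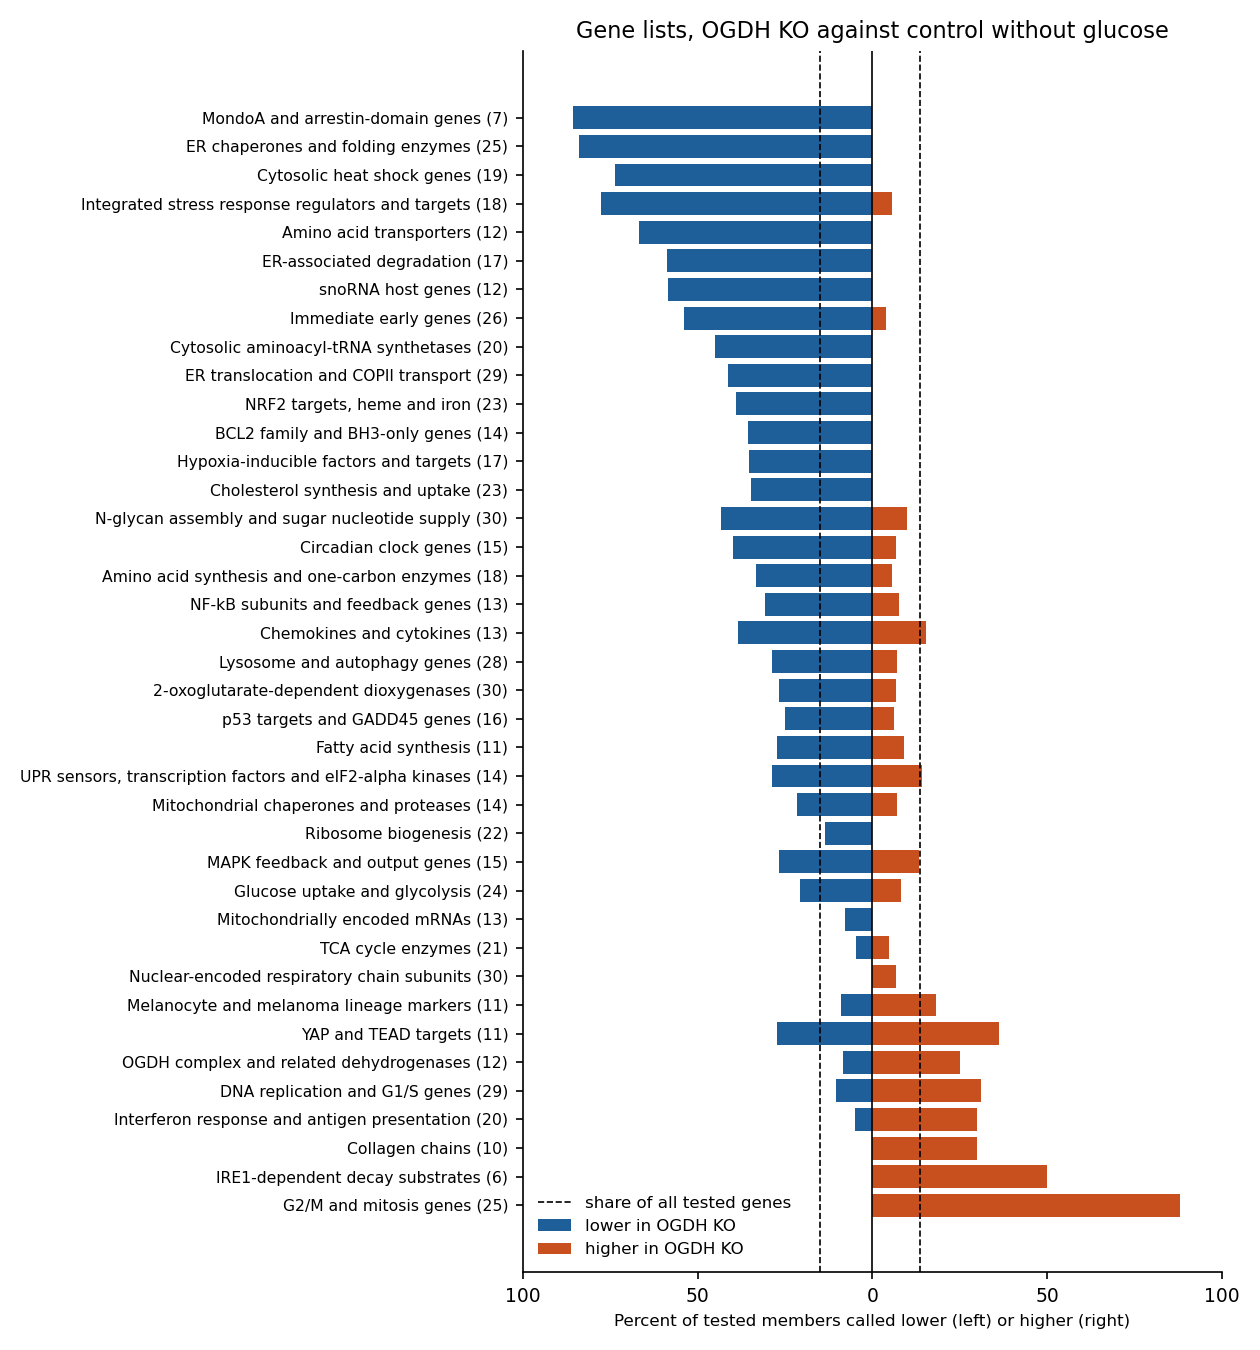
Percent of the tested members of each list (number in brackets) that were lower (blue, left) or higher (orange, right) in starved OGDH KO cells than in starved controls by the edgeR test. The dashed lines are the shares over all tested genes, 15% lower and 13.7% higher. The MondoA and arrestin-domain list, ER chaperones and heat shock genes lie at one end, and G2/M genes at the other.

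Transcripts of the mitochondrial genome varied strongly within both groups, and their result depended on the 2 libraries that stood apart. All 13 mitochondrially encoded mRNAs had log2 differences below 0, with a median of -1.004, but only MT-ND6 passed the test (log2 -2.13, SE 0.71, edgeR adjusted p = 0.0420). This call was lost without C1, C2, K1 or K2 at edgeR adjusted p from 0.0791 to 0.182, and its libraries overlapped at 1516, 852 and 183 CPM in controls and 82.7, 135 and 366 CPM in KO cells. MT-ND6 lies on the opposite strand to the other 12, and the counting did not use strand. Of all 25 tested genes of the mitochondrial genome, 10 were lower (40%) and 0 higher with all 6 libraries, beside 15% and 13.7% of all tested genes. Without the 2 libraries all 13 mRNAs were lower. The libraries then left had mitochondrial shares of 14.4% and 13.2% in controls and 3.06% and 5.12% in KO cells, so library differences and OGDH loss cannot be told apart there. The mitochondrial 16S rRNA MT-RNR2 showed the same split, at 11727, 12285 and 3919.7 against 1446, 2348 and 4150.1 CPM (log2 -1.81, SE 0.51, edgeR adjusted p = 0.0202), a call lost without C1, C2, K1 or K2 at edgeR adjusted p from 0.0647 to 0.0729. Of 30 nuclear-encoded respiratory chain subunits 2 rose, NDUFB3 (0.60, lost without C2 or K1 at edgeR adjusted p from 0.0541 to 0.0554) and NDUFB10 (0.42), and 0 fell (0 lower and 7 higher without the 2 libraries). The NDUFB10 call was lost after the GC correction (edgeR adjusted p = 0.251).

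The effect of OGDH loss differed between the absence and the presence of glucose for many genes. With glucose, where none of the 6 libraries is shared with the starved comparison, 294 genes were higher (1.59%) and 269 lower (1.45%) in OGDH KO cells. The test of the difference between the effects was passed by 3196 genes, 1537 with the starved effect the higher (8.3%) and 1659 with it the lower (8.95%). Of 371 genes called in both conditions 90 were higher in both and 101 lower in both. The other 180 went in opposite directions, 108 higher with glucose and lower without it and 72 the reverse. All 180 passed the test of the difference, which adds no support, because 2 called effects of opposite sign in the same fit lead to it. Without fed control replicate 1 or 3, or any 1 of the fed KO libraries, the fed count was 172 to 288 and the count of opposite genes 66 to 103. Leaving out starved OGDH KO replicate 2 gave 373 and 109. C1orf116 showed the first pattern. It measured 139.9, 139 and 135 CPM in starved controls and 35.9, 38.2 and 33.2 CPM in starved KO libraries (log2 -1.95, SE 0.10, edgeR adjusted p = 3.47e-07). With glucose it was at 15.4 ± 1.39 CPM in fed controls and 34.6 ± 2.44 CPM in fed KO cells (log2 1.17, SE 0.10, edgeR adjusted p = 0.000214). HBEGF, a ligand of the EGF receptor, did likewise, at 175, 184 and 196 against 66.9, 68.8 and 60.7 CPM without glucose (log2 -1.497, SE 0.089, edgeR adjusted p = 6.68e-07). With glucose it was at 26.5 ± 1.38 CPM against 54.2 ± 1.73 CPM (log2 1.03, SE 0.089, edgeR adjusted p = 0.000214). XBP1 and HERPUD1, described above, were of this kind too and, like these, among the 5 opposite genes with the smallest p of the difference, with fed log2 effects of 0.55 and 0.53. The fed call of HERPUD1 was lost without any 1 of the 6 fed libraries (edgeR adjusted p from 0.0752 to 0.182). TNFRSF19 showed the reverse, at 1.51, 1.505 and 1.64 against 7.72, 8.25 and 8.39 CPM without glucose (log2 2.38, SE 0.12, edgeR adjusted p = 2.32e-07) and 9.36 ± 0.112 CPM against 6.55 ± 0.310 CPM with it (log2 -0.51, SE 0.10, edgeR adjusted p = 0.0211). That fed call was lost without any fed library except control replicate 2 (edgeR adjusted p from 0.0699 to 0.115). The adenosine receptor gene ADORA1 was another with a large difference, higher without glucose (log2 1.88) and lower with it (-0.97).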

How the data were processed

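RNA of A375 cells was sequenced in 12 libraries, 4 groups of 3, and the 6 starved libraries are described here. The counts are whole fragments per gene name as the authors deposited them, made with featureCounts 2.0.1 over exons of an hg38 annotation without use of strand, multi-mapping fragments or fragments over several genes, per the file header. The submitters' processing notes name Subread and hg38. The sources used here do not name the aligner or library kit. Antisense or overlapping genes and near copies are therefore uncertain.

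The counts were analysed in R 4.3.3 with edgeR 4.0.16 and limma 3.58.1. Genes were kept by filterByExpr (minimum count 10, total 15), scaled by TMM and fitted with glmQLFit and 1 mean per group over 12 libraries, so that all groups share the estimate of spread. OGDH loss without glucose, with glucose, and the difference of these effects were tested with glmQLFTest at a Benjamini-Hochberg adjusted p of 0.05 over all tested genes. The fit was tested on simulated counts. Levels are CPM from the scaled library sizes.

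The members and the 44 gene lists were chosen with earlier results of these data known. Named genes were OGDH and its complex, the 12 largest increases and decreases with no overlap at 5 CPM or more, the 8 largest differences in CPM, the 4 smallest p in each list, the 5 largest differences of effects each way, the 5 opposite genes with the smallest p, and ATF4, DDIT3, HSPA5, XBP1, TXNIP, SLC2A1, ASNS, HMOX1, FOS and GLUD1. Some genes that this rule takes in are not reported here. Others are said to be named after their values were seen. Alternatives were DESeq2 1.42.0, upper-quartile and RLE scaling, no filter and a stricter one (minimum count 50), only the groups compared, the replicate number as a block, each library left out, the 3 libraries farthest from their groups left out, mitochondrial genes left out, a GC offset and a test against a 1.5-fold change. Promoter windows are RefSeq's (GRCh38.p14).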

Additional observations from a re-analysis of the deposited data

Results flagged for a closer look

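The effect of OGDH loss without glucose differed from its effect with glucose for 3196 genes by edgeR's test of that difference. Of the 223 genes named in the text, 161 were among them. For 135 of these the call and its sign were the same in every alternative run that gave the gene an adjusted p. The test against a 1.5-fold change was not read for single genes and is left out here. The call was lost for 18 when 1 of the 12 libraries was left out. Here C and K are starved control and starved OGDH KO replicates, and fed C and fed K those with glucose. KRT16 lost it without fed K3 (edgeR adjusted p = 0.0728). The call of SDHD was lost without fed K2 (edgeR adjusted p = 0.0566). XIRP1 lost it without fed K3 (edgeR adjusted p = 0.0583). The call of DLAT was lost without C1, fed K1 or fed K2 (edgeR adjusted p from 0.0563 to 0.0636). ATF4 lost it without K3, fed K1, fed K2 or fed K3 (edgeR adjusted p from 0.0536 to 0.0763). The call of BIK was lost without K2, K3, fed K2 or fed K3 (edgeR adjusted p from 0.0578 to 0.0666). CRIM1 lost it without C1, K1, K2, fed C1 or fed K1 (edgeR adjusted p from 0.0519 to 0.0686). The call of IFIT3 was lost without C1, C3, fed K1, fed K2 or fed K3 (edgeR adjusted p from 0.0561 to 0.0663). IL11 lost it without C3, K2, K3, fed K1 or fed K3 (edgeR adjusted p from 0.0559 to 0.0750). The call of KDR was lost without C2, C3, K2, fed C3, fed K2 or fed K3 (edgeR adjusted p from 0.0559 to 0.0677). CD14 lost it without C2, C3, K1, K2, fed C3, fed K1 or fed K3 (edgeR adjusted p from 0.0505 to 0.0775). The call of HMMR was lost without C1, C3, K2, K3, fed C2, fed K1, fed K2 or fed K3 (edgeR adjusted p from 0.0563 to 0.0879). ZFAS1 lost it without C1, C3, K2, K3, fed C2, fed C3, fed K1 or fed K3 (edgeR adjusted p from 0.0523 to 0.0859). The call of GRPEL1 was lost without C2, C3, K2, K3, fed C2, fed C3, fed K1, fed K2 or fed K3 (edgeR adjusted p from 0.0619 to 0.122). HSPA9 lost it without C1, C2, K1, K2, fed C1, fed C3, fed K1, fed K2 or fed K3 (edgeR adjusted p from 0.0525 to 0.0656). The call of IRF1 was lost without C1, C3, K2, K3, fed C2, fed C3, fed K1, fed K2 or fed K3 (edgeR adjusted p from 0.0635 to 0.113). NDUFB3 lost it without C1, C2, C3, K1, K2, fed C1, fed C3, fed K1 or fed K2 (edgeR adjusted p from 0.0503 to 0.111). The call of SLC30A1 was lost without C1, C2, C3, K1, K3, fed C2, fed C3, fed K1, fed K2 or fed K3 (edgeR adjusted p from 0.0506 to 0.101). Each value below is the log2 effect without glucose minus the log2 effect with it, so a negative value means that the starved effect was the lower.

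In the OGDH complex and related dehydrogenases list, the value was 0.51 for DLAT and 0.92 for DHTKD1. The TCA cycle enzymes list gave 0.72 for SDHD. Values in the 2-oxoglutarate-dependent dioxygenases list were -1.87 for KDM6B, -1.44 for TET3, -1.15 for KDM7A and -1.10 for EGLN2. In the ER chaperones and folding enzymes list, the value was -3.58 for HSPA5, -2.68 for CRELD2, -2.50 for HYOU1, -2.32 for ERO1B, -1.81 for DNAJB11, -1.78 for MANF, -1.67 for HSP90B1 and -1.19 for CALR. The ER-associated degradation list gave -3.33 for HERPUD1, -1.92 for SYVN1, -1.87 for SEL1L and -1.53 for SELENOS. Values in the UPR sensors, transcription factors and eIF2-alpha kinases list were -2.23 for ERN1, -2.22 for XBP1, -1.45 for EIF2AK3, -1.22 for CREB3L2, 0.54 for EIF2AK4 and 1.71 for CREB3L1. In the ER translocation and COPII transport list, the value was -1.59 for SEC24D, -0.85 for SEC11C, -0.80 for SEC23B and -0.80 for SRPRB. The N-glycan assembly and sugar nucleotide supply list gave -1.94 for UAP1, -1.73 for GFPT1, -1.04 for ALG2 and -0.95 for PGM3. The value in the IRE1-dependent decay substrates list was 0.97 for SCARA3. In the integrated stress response regulators and targets list, the value was -3.94 for CHAC1, -3.38 for SESN2, -3.17 for DDIT3, -2.46 for CEBPB, -2.22 for CEBPG and -0.76 for ATF4. The amino acid synthesis and one-carbon enzymes list gave -2.91 for CTH, -1.74 for ASNS, -1.43 for GOT1, -1.27 for MTHFD2 and 1.13 for SHMT1. Values in the amino acid transporters list were -2.55 for SLC1A4, -2.15 for SLC6A9, -1.55 for SLC7A1 and -1.20 for SLC38A1. In the cytosolic aminoacyl-tRNA synthetases list, the value was -1.54 for WARS1, -1.30 for GARS1, -1.21 for SARS1 and -0.77 for IARS1. The immediate early genes list gave -2.75 for DUSP1, -2.07 for KLF4, -1.73 for KLF6 and -1.22 for BTG2. Values in the cytosolic heat shock genes list were -4.95 for HSPA6, -2.71 for HSPA1A, -2.67 for HSPB8, -1.78 for BAG3, -1.67 for DNAJB1 and -0.92 for HSPA8. In the mitochondrial chaperones and proteases list, the value was -0.83 for HSPA9 and -0.45 for GRPEL1. The NRF2 targets, heme and iron list gave -5.56 for HMOX1, -1.80 for TXNRD1, -1.59 for SQSTM1 and -1.31 for FTH1. The value in the metallothioneins and zinc response list was 0.49 for SLC30A1. In the chemokines and cytokines list, the value was -1.45 for IL11, 0.79 for CXCL1, 1.11 for IL1B and 4.08 for CCL2. The NF-kB subunits and feedback genes list gave 0.73 for ICAM1. Values in the MAPK feedback and output genes list were -2.32 for DUSP5, -1.88 for SPRY4, -1.59 for EPHA2 and 1.69 for ETV1. In the MondoA and arrestin-domain genes list, the value was -0.91 for TXNIP, -0.85 for ARRDC4 and -0.68 for HBP1. The glucose uptake and glycolysis list gave -1.42 for SLC2A3, -1.06 for HK2, -0.76 for SLC16A1 and 0.72 for PGAM1. Values in the hypoxia-inducible factors and targets list were -2.23 for EPAS1, -1.93 for VEGFA, -1.55 for NDRG1 and -0.95 for BNIP3L. In the cholesterol synthesis and uptake list, the value was -1.12 for HMGCS1, -1.11 for STARD4 and -0.65 for INSIG1. The fatty acid synthesis list gave 1.24 for ELOVL6. Values in the G2/M and mitosis genes list were 0.92 for CENPA, 1.004 for CCNB2, 1.32 for AURKA, 1.38 for CCNB1, 1.42 for PLK1, 1.503 for BUB1B, 1.52 for HMMR and 2.06 for KIF20A. In the DNA replication and G1/S genes list, the value was -1.10 for CCNE1, -0.55 for CDC6, 1.07 for PCNA and 1.13 for MCM6. The p53 targets and GADD45 genes list gave -1.70 for GADD45A and -1.67 for GADD45B. Values in the BCL2 family and BH3-only genes list were -1.46 for PMAIP1, -1.20 for BCL2L1, -1.06 for BIK, -1.003 for BCL2L11 and -0.87 for BCL2. In the lysosome and autophagy genes list, the value was -2.25 for MAP1LC3B, -2.21 for WIPI1 and -0.75 for CTSL. The nuclear-encoded respiratory chain subunits list gave 0.71 for NDUFB3. Values in the interferon response and antigen presentation list were -0.97 for IRF1, 0.80 for IFIT3, 0.91 for OAS3, 1.06 for MX1, 1.46 for OAS1, 1.48 for IFIT1 and 1.54 for IFI44. In the snoRNA host genes list, the value was -0.70 for GAS5, -0.63 for SNHG1 and -0.55 for ZFAS1. The YAP and TEAD targets list gave -3.35 for ANKRD1, -2.05 for F3, -0.46 for CRIM1 and 0.51 for AMOTL1. Values in the circadian clock genes list were -1.52 for BHLHE40, -1.19 for CRY1 and -0.78 for PER1. In the collagen chains list, the value was 0.64 for COL5A2 and 0.67 for COL4A1. The melanocyte and melanoma lineage markers list gave 0.71 for SOX10. The value in the blood cell markers list was -2.17 for CD14. In the endothelial markers list, the value was 0.93 for KDR. Of the genes in no list, those with the lower effect without glucose had -7.46 for KRT16, -6.24 for XIRP1, -5.66 for PRR9, -5.32 for ZNF469, -4.09 for KRT6A, -4.05 for RPLP0P2, -3.69 for CRISPLD2, -3.12 for C1orf116 and -2.53 for HBEGF. Those with the higher effect had 1.97 for TNS3, 2.04 for TLR3, 2.09 for NKILA, 2.14 for SORBS2-AS1, 2.16 for PCDHB8, 2.35 for B4GAT1, 2.44 for ZMYM3, 2.50 for NFIA, 2.71 for MEOX2, 2.85 for ADORA1, 2.89 for TNFRSF19, 3.48 for DIXDC1 and 3.54 for SOX5.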

How the results depend on the processing

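OGDH itself was lower at an edgeR or DESeq2 adjusted p under 0.05 in each alternative run read for single genes. The test against a 1.5-fold change was not read in this way. The count of 5310 genes was 9874 without the 3 libraries farthest from their groups (fed control, starved control and starved OGDH KO replicates 2, 3 and 3), 1653 against a 1.5-fold change, where 38.5% were higher against 47.7% before, and 4030 to 5388 with each starved library left out. The fed count of 563 was 1172 with DESeq2, 215 with the fed groups alone, 2021 without those 3 libraries, 1511 after the GC offset, 28 against a 1.5-fold change (64.3% higher against 52.2%) and 172 to 397 with each fed library left out. The count of 3196 differences of effects was 8077 without those 3 libraries, 5116 after the GC offset, 1080 against a 1.5-fold change and 2293 to 3319 with each library left out, and a fit with fewer groups was not run for it. After the GC offset 12 named genes lost their call without glucose and 6 gained one. Those lost and not given above were DPAGT1 (edgeR adjusted p = 0.308), DOLK (0.134), SLC30A1 (0.0811), FADS2 (0.0716), ATP6V1A (0.0656) and MTHFD2 (0.0546). No scaling alternative moved the median of all genes by 0.1. With the replicate number as a block the 3 counts were 4931, 342 and 2759. Same-numbered control and OGDH KO libraries had deviations with r of -0.443, -0.0135 and -0.687 across genes without glucose and 0.0179, 0.192 and 0.103 with it, so not every pair passed 0.1 and the numbers were not taken as pairs. Starved against fed libraries were not checked. Signs that turned without the 3 libraries were those of SLC2A1 (0.31) and CENPE (-0.58) without glucose, and the differences of effects of DLST (0.34), NFKBIE (0.69), NFKBIZ (-0.36), CCNG1 (-0.51) and CENPE (-0.83). The cause was not tested, except that a test against 1.5-fold asks for a larger change. With 21559889 to 25546615 fragments in the starved libraries, genes under about 1 CPM rest on few fragments.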

Other observations

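Gene classes in RefSeq's annotation differed in how they were called, beside 13.7% higher and 15% lower over all tested genes. Of 13145 protein-coding genes 16.3% were higher and 14.9% lower in starved OGDH KO cells. Of 1355 long non-coding RNA genes 12.8% were higher and 17.6% lower, and of 1391 pseudogenes 4.24% were higher and 9.2% lower. Of 25 genes of the mitochondrial genome, whose levels varied strongly within both groups, 0 were higher and 40% lower. Small RNA genes were called lower where they were called: 6 of 23 snoRNA genes (26.1%) and 7 of 26 miRNA genes (26.9%), with 0 higher in either class. The 2548 names without a RefSeq match had 6.36% higher and 16.6% lower. Near copies limit the counts of pseudogenes, and overlapping transcripts those of non-coding genes, since strand was not used.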
